A study of Mus musculus with 2 samples.

Results

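The insulin-like growth factor (IGF) system was followed through 10 genes: the ligand gene Igf1, the receptor genes Igf1r, Insr and Igf2r, the receptor substrate genes Irs1 and Irs2, and the binding protein genes Igfbp2, Igfbp3, Igfbp4 and Igfbp5. They were chosen by name, as the genes of a growth factor pathway, and every probe set annotated to exactly 1 of them was read. That gave 10 of 18194 named genes and 27 of 34958 probe sets with 1 gene symbol. The cells compared are named by age: P0, picked on the day of birth, and E12.5, picked at embryonic day 12.5. Each was a single cell picked from papain-treated CD1 retina (CD1 is an outbred albino mouse) and hybridised to its own Affymetrix array. Before hybridisation, cDNA primed at the poly(A) tail was amplified by 35 cycles of PCR. The labels assign both cells to the ciliary body, the secretory tissue at the rim of the eye cup that carries the lens ligaments. The submitters made that assignment from gene expression after reading the arrays, and neither cell had scored for a retinal class.

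IGF1 and IGF2 are small secreted proteins related to insulin that promote growth and survival of cells. They act through IGF1R, a receptor tyrosine kinase whose close relative INSR binds insulin, and activated receptors phosphorylate the docking proteins IRS1 and IRS2, which recruit PI3 kinase and so AKT and mTOR. IGF2R is a different kind of protein: it carries mannose 6-phosphate tagged enzymes to lysosomes and removes IGF2 from outside the cell without kinase signalling, while the secreted IGFBPs hold IGFs in the fluid and control how much reaches the receptors.

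The values are MAS5 signals, which are linear intensities in arbitrary units, 1 per probe set and cell. A probe set counted as above background when its signal exceeded a limit read from 203 probe sets of genes that the eye is not known to use (olfactory receptors, keratin-associated proteins, protamines, caseins and the like). The limit was a signal of 339 on the P0 array and 237 on the E12.5 array. Each gene was read from 1 probe set, the one whose log2 signals averaged highest across both cells, and was called different when the cells differed by 4-fold or more, any signal under a limit being replaced by that limit. A fold written "at least" has such a replaced signal and is a lower bound. With 1 cell per age there are no replicates, so no p-value or standard error exists, the number of arrays limits the precision, and each difference is between these cells and not between ages. Log2 ratios of probe sets of the same gene differed with an SD of 0.84. This was taken over 985 genes with several probe sets above background in both cells. It leaves out probe sets below a limit in a cell, such as those behind the calls of Insr and Igf2r given below. As a spread between probe sets of 1 cDNA per cell, it does not measure error of amplification or between cells. Transcripts can drop out of the cDNA of a single cell, so "not detected" does not mean absent.

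Upstream sequences of genes on which the results turn are shown first, except for Insr, which had none available. They allow a comparison of the Igf1r and Igf2r promoters, the promoters of the binding protein genes detected in both cells and the promoter of the undetected Igfbp3. Each is the stretch of 250 bases ending just before the annotated transcription start, from RefSeq on build GRCm38.p6, written 5′ to 3′ on the strand of the gene. Capitals mark matches, on either strand, to a GC box (GGGCGG, a binding sequence of the SP1 family), an E-box (CACGTG, bound by MYC and USF family factors) or a TATA motif (TATANA). Matches of the same motif can overlap.
Igf1r promoter, chr7:67952007-67952256, plus strand: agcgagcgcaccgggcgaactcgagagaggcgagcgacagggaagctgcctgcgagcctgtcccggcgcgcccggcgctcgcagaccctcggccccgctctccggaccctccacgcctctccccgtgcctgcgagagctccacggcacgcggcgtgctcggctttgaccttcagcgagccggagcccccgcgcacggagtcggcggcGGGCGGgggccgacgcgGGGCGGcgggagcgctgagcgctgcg
Igf2r promoter, chr17:12769707-12769956, minus strand: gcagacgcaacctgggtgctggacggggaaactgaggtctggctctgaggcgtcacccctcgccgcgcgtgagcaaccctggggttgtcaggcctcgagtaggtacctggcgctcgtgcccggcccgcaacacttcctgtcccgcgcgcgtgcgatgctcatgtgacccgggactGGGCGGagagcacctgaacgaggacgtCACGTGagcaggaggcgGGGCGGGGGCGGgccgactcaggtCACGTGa
Igfbp2 promoter, chr1:72824230-72824479, plus strand: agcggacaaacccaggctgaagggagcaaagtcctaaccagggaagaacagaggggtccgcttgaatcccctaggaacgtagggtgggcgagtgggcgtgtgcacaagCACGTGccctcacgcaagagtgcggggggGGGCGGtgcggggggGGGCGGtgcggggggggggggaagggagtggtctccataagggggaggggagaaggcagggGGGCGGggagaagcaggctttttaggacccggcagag
Igfbp4 promoter, chr11:99040994-99041243, plus strand: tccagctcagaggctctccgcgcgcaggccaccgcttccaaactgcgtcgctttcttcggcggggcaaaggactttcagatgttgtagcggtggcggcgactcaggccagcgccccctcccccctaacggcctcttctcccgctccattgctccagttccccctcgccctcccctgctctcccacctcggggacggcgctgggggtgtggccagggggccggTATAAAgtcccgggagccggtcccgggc
Igfbp5 promoter, chr1:72874866-72875115, minus strand: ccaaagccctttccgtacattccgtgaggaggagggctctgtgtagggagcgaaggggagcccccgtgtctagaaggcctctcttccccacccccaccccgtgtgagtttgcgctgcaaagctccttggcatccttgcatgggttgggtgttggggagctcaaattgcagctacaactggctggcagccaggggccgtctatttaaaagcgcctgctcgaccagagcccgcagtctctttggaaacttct
Igfbp3 promoter, chr11:7213924-7214173, minus strand: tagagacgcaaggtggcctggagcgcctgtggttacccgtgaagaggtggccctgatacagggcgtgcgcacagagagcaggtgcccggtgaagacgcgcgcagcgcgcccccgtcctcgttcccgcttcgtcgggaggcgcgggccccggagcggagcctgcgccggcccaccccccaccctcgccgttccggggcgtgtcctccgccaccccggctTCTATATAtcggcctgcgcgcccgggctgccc

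Windows were available for 9 of the 10 genes, all but Insr, with 2 windows for Igfbp2, the first of which is shown. The Igf1r window held 2 GC boxes and the Igf2r window 3, together with 2 E-boxes, and neither held a TATA motif. The first Igfbp2 window held 3 GC boxes and 1 E-box. The Igfbp4 window had 1 TATA motif and no GC box, and the Igfbp3 window 2 overlapping TATA motifs and no GC box. The Igfbp5 window matched none of the 3 motifs. Of the sequences not printed, the Irs1 window held 2 GC boxes and 1 E-box, the Irs2 window 1 of each, and the Igf1 window no match. Among 32851 windows of the same length, 32.7% held a GC box, 6.02% the E-box and 22.6% the TATA motif. The bases G and C made up 77.6% of the Igf1r window and 69.2% of the Igf2r window, against a median of 52.4% over all windows. This was not particular to the receptor genes. The other windows of the matched genes were above that median too, from 52.8% for Igf1 to 73.2% for Igfbp3, with 72.8% for Irs2. These matches describe the letters of the windows. The binding protein genes detected in both cells shared none of the 3 motifs.

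Of the 10 genes, 7 were above background in P0 and 5 in E12.5, and the 5 were all among the 7. Over all named genes the shares above background were 28.5% in P0, 30.8% in E12.5 and 18.9% in both. In both cells the detected genes were Igf1r, Irs1, Igfbp2, Igfbp4 and Igfbp5, and in P0 also Igf2r and Insr. Igf1, Irs2 and Igfbp3 were below background in both. The 3 receptor genes were at least 4-fold higher in P0, where 9.46% of all named genes were, and 0 of the 10 genes were at least 4-fold higher in E12.5, where 7.44% were. Counted by probe set, 12 of 27 were above background in P0 and 11 in E12.5, with 10 in both, beside 22.5%, 24.5% and 14.1% of all probe sets. A 4-fold difference was reached by 4 of the 27 on the P0 side and 1 on the E12.5 side, beside 7.44% and 5.79% of all probe sets. A share of this kind over 10 genes was not tested. The plot of every probe set shows 10 probe sets above both limits, 8 of them from binding protein genes, and 14 below both.

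**Figure D1:**
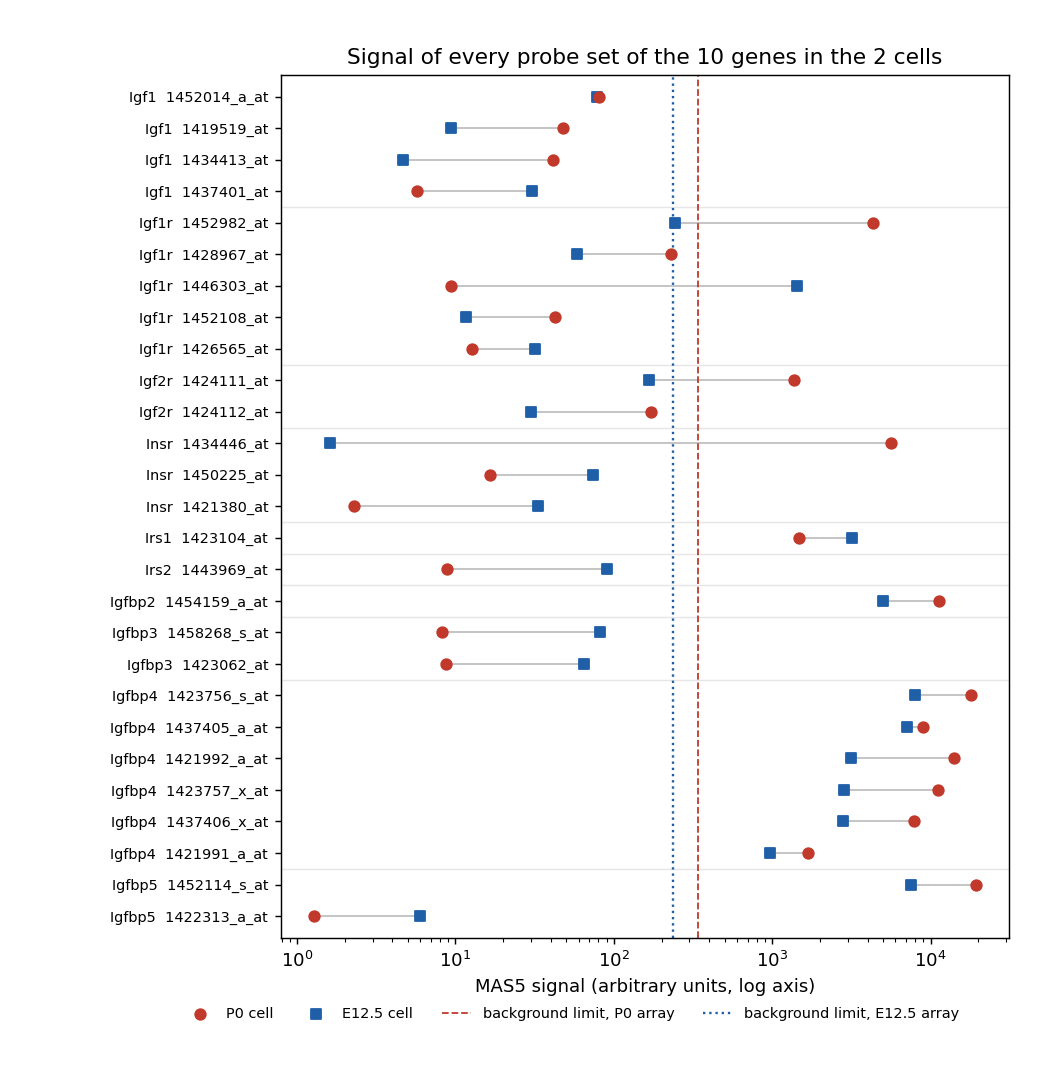
Signal of each of the 27 probe sets of the 10 genes in P0 (red circles) and E12.5 (blue squares), on a logarithmic axis in arbitrary units, with each array's background limit as a vertical line (339 for P0, 237 for E12.5). The 6 Igfbp4 probe sets lie above both limits, while all 4 Igf1 probe sets lie below both.

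The ligand gene Igf1 was not detected in either cell. Its 4 probe sets had signals of 80.3, 47.6, 41.3 and 5.70 in P0. In E12.5 the same probe sets had 78.1, 9.39, 4.64 and 30.2. All of these lie well under the limits, so their ratios are not measurements of a difference. The other IGF ligand gene, the imprinted fetal growth factor gene Igf2, was bright in both cells, with 16332 in P0 and 12635 in E12.5, a 1.29-fold difference that is smaller than the spread between probe sets of a gene. The insulin gene Ins2, the next protein-coding gene beside Igf2 on chromosome 7, had 23.96 in P0 and 23.90 in E12.5.

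Igf1r, which encodes the receptor through which IGF1 and IGF2 signal, was 17.7-fold higher in P0 by the probe set that represents it, 1452982_at, with a signal of 4329 in P0 and 245 in E12.5. The E12.5 signal lay just above its limit, at 1.03 times it. The ratio ranked at percentile 96.1 among the 7339 genes above background in at least 1 cell. The other 4 probe sets did not repeat this. Probe set 1446303_at had the opposite pattern, with 9.34 in P0 and 1426 in E12.5, and so was at least 4.20-fold higher in E12.5. Probe set 1428967_at had 231 in P0 and 58.7 in E12.5, both below their limits. The remaining pair, 1452108_at and 1426565_at, had 42.6 and 12.7 in P0, and 11.6 and 31.8 in E12.5. Opposite calls within a gene are not rare on these arrays: they occurred in 117 of 746 genes with several called probe sets, or 15.7%. With the log2 signals averaged over all 5 probe sets the log2 ratio of Igf1r was 0.73 and the 4-fold call was lost.

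Insr, which encodes the insulin receptor, was at least 23.8-fold higher in P0. Its probe set 1434446_at had 5644 in P0, against 1.60 in E12.5, the lowest E12.5 signal of the 27 probe sets. The ratio at the limit ranked at percentile 98.1 of the same 7339 genes. The other probe sets, 1450225_at and 1421380_at, were below background in both cells, with 16.4 and 2.30 in P0, and 74.1 and 33.0 in E12.5. Such a lone bright probe set is common here: of 2158 genes with at least 3 probe sets and a signal above background in P0, 44.9% had exactly 1 above it. Averaged over probe sets, the log2 ratio of Insr was 1.87, just short of 4-fold. Insrr, which encodes the third receptor of this family, had 11.4 in P0 and 99.7 in E12.5 and was not detected.

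Igf2r, the scavenger and sorting receptor, was at least 5.80-fold higher in P0, with 1373 in P0 and 166 in E12.5 for probe set 1424111_at. Its ratio at the limit ranked at percentile 81.6 of the same 7339 genes. The second probe set, 1424112_at, was lower in both cells but in the same order, with 173 in P0 and 30.1 in E12.5, each under its limit. The mouse gene is imprinted and expressed from the maternal copy in most tissues, while Airn, a noncoding RNA that starts inside it on the other strand, comes from the paternal copy. A probe set annotated to both Airn and Igf2r, which names neither gene, had 43.9 in P0 and 198 in E12.5, below both limits. The call for Igf2r was lost when probe sets were averaged (log2 ratio 1.53) and when array scaling used the hybridisation spike-ins (log2 ratio 1.67). Igf1r and Insr kept their calls under the spike-in scaling, with log2 ratios of 3.28 and 3.71.

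**Figure D2:**
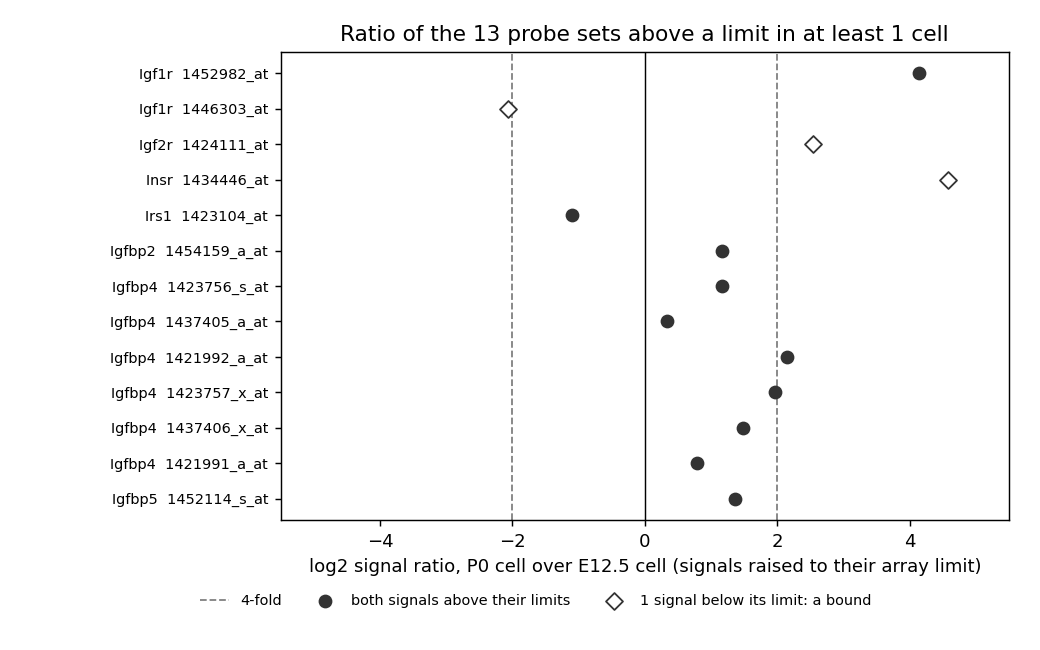
Log2 ratio of the P0 over the E12.5 signal for the 13 probe sets above background in at least 1 cell, each signal first raised to its array's limit. Filled circles are ratios with both signals above their limits, open diamonds are bounds, and dashed lines mark 4-fold. The 2 Igf1r probe sets stand on opposite sides, at 4.14 and -2.07, while the 8 points of Igfbp2, Igfbp4 and Igfbp5 lie between 0.34 and 2.14.

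Among the receptor substrates, Irs1 was detected in both cells, with 1474 in P0 and 3167 in E12.5 by its only probe set. Its log2 ratio of -1.10, or 2.15-fold higher in E12.5, is short of the 4-fold threshold and ranked at percentile 29.6 of the same 7339 genes. Irs2, read by 1 probe set, had 8.79 in P0 and 90.2 in E12.5, below both limits. Irs4, a substrate gene with a narrower tissue distribution, was at least 26.2-fold higher in E12.5, with 40.8 in P0 and 8895 in E12.5. Of these 3 substrate genes, 1 was thus detected in both cells, 1 in E12.5 only and 1 in neither.

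Of the 4 binding protein genes, 3 were detected in both cells and 1 in neither. Igfbp2, whose protein is a main IGF carrier of fetal tissue and cerebrospinal fluid, had 11226 in P0 and 5015 in E12.5. Igfbp5, whose protein binds IGFs and extracellular matrix, had 19257 in P0 and 7518 in E12.5 by probe set 1452114_s_at. The signals of Igfbp2 and Igfbp5 were 33.1 and 56.8 times the limit in P0, and 21.2 and 31.7 times the limit in E12.5. A second Igfbp5 probe set, 1422313_a_at, read 1.28 in P0 and 5.94 in E12.5, so the bright reading rests on 1 of 2 probe sets. Igfbp3, whose protein is the main IGF carrier of adult blood, had 8.19 and 8.75 in P0, and 81.5 and 64.8 in E12.5, and was not detected.

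Igfbp4, whose protein mostly restrains IGF action until it is cut by the protease PAPP-A, was read by 6 probe sets, all above background in both cells. Their signals ran between 1674 and 17957 in P0, and between 974 and 7999 in E12.5. All 6 were higher in P0, by 1.27-fold to 4.42-fold with a median of 2.51-fold, and the mean log2 ratio was 1.31 ± 0.69 (SD, n = 6 probe sets of 1 cDNA each cell, which are not replicates). The 1 probe set past 4-fold, 1421992_a_at, had 13966 in P0 and 3162 in E12.5, and the probe set that represents the gene had a ratio of 2.24-fold. This is the best measured gene of the 10, since no other had more than 2 probe sets above background in a cell.

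Igfbp2, Igfbp4 and Igfbp5 differed between the cells by similar amounts, 2.24-fold, 2.24-fold and 2.56-fold, all higher in P0 and all under 4-fold. Ratios of this size were not unusual. They ranked at percentiles 68.0, 68.1 and 70.2 of the 7339 genes above background in at least 1 cell. The log2 ratios of the 3435 genes detected in both cells had an SD of 1.49. Of their 8 probe sets above background in both cells, 8 were higher in P0 with the deposited scaling and with quantile normalization, and 6 with the arrays scaled to the spike-ins, where 2 Igfbp4 probe sets turned to log2 ratios of -0.53 and -0.09. The spike-in scaling shifted every P0 signal by -0.87 on the log2 scale, and the median log2 ratio of genes detected in both cells was -0.85 with it and 0.02 without it. The 8 ratios had a median of 1.26 as deposited and 0.40 with the spike-in scaling. All 8 probe sets have names ending in _a_at, _s_at or _x_at, which the manufacturer gives to designs that match several transcripts, so leaving out such designs removes these 3 genes from the count.

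The binding protein genes partly lie in pairs on the chromosomes, and a link of position to signal was not tested. Igfbp2 and Igfbp5 are next to each other among protein-coding genes on chromosome 1, and both were bright in both cells. Igfbp1 and Igfbp3 are next to each other on chromosome 11, and neither was detected, Igfbp1 having 26.7 in P0 and 5.58 in E12.5. Igfbp4 lies apart from these pairs. The other carriers were below background in both cells too: Igfbp6 had 4.48 in P0 and 5.60 in E12.5, Igfbp7 had 93.04 and 110, Igfbpl1 had 60.3 and 9.25, and the acid-labile subunit gene Igfals had 20.2 and 44.1, in the same order of cells. Of the 7 measured genes in the list of further ligands and carriers, Igf2 was thus the only one above background.

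The list of binding protein proteases and their inhibitors held 7 genes, of which Htra1 and Adam9 were above background in P0 and Adam9 in E12.5, a share in P0 close to that of all named genes (28.5%). Htra1, a secreted serine protease that cleaves IGFBP5, was at least 5.52-fold higher in P0, with 1308 in P0 and 83.0 in E12.5, and its second probe set (1883 and 14.2) was also past 4-fold. Under the spike-in scaling the log2 ratio of Htra1 was 1.60, short of 4-fold. Adam9, a membrane metalloprotease, had 944 in P0 and 546 in E12.5. Pappa, which encodes the protease of IGFBP4, had 21.1 in P0 and 39.0 in E12.5, and Pappa2, Adam12 and the PAPP-A inhibitor genes Stc1 and Stc2 were below background as well.

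Across 7 lists of further pathway genes, from ligands to mRNA-binding proteins, 68 of 74 genes had a probe set of their own. Calls of 4-fold or more numbered 12 on the P0 side and 10 on the E12.5 side, beside 9.46% and 7.44% of all named genes. The 12 became 5 and the 10 became 16 under the spike-in scaling, and 5 and 6 with averaged probe sets. With casein kinases kept among the background genes both became 0, so every 4-fold call given for these lists ended there, among them Irs4 (log2 ratio -0.97), Pik3r3 (-0.60) and Foxo3 (0.80). Beside Htra1, the spike-in scaling ended the P0 calls of Shc1 (log2 ratio 1.25), Sos2 (1.32), Sh2b1 (1.54), Pik3r1 (1.33), Tsc1 (1.54) and Tsc2 (1.14). Averaging also ended those of Shc1 (1.32), Sh2b1 (1.46), Pik3r1 (0.94) and Tsc1 (1.15). Over the genes above a limit, the median log2 ratio at the limit was -1.002 for adaptors, 1.53 for the PI3 kinase list, -0.95 for the mTOR list, -1.49 for sorting and -3.54 for the IGF2 mRNA-binding proteins, against 0.03 over all 7339 genes. In that order the list medians rest on 10, 11, 12, 4 and 2 genes, too few to give any list a direction. With the other probe set taken for genes whose probe sets conflict, a choice made after seeing the data, the median turned to -0.40 for the PI3 kinase list (Gsk3b and Pdpk1) and 1.16 for sorting (M6pr) and was -0.30 for adaptors (Grb2), so the PI3 kinase and sorting lists have no settled direction. The bars of genes by list show that calls in both directions occurred in the adaptor, PI3 kinase, mTOR and sorting lists.

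**Figure D3:**
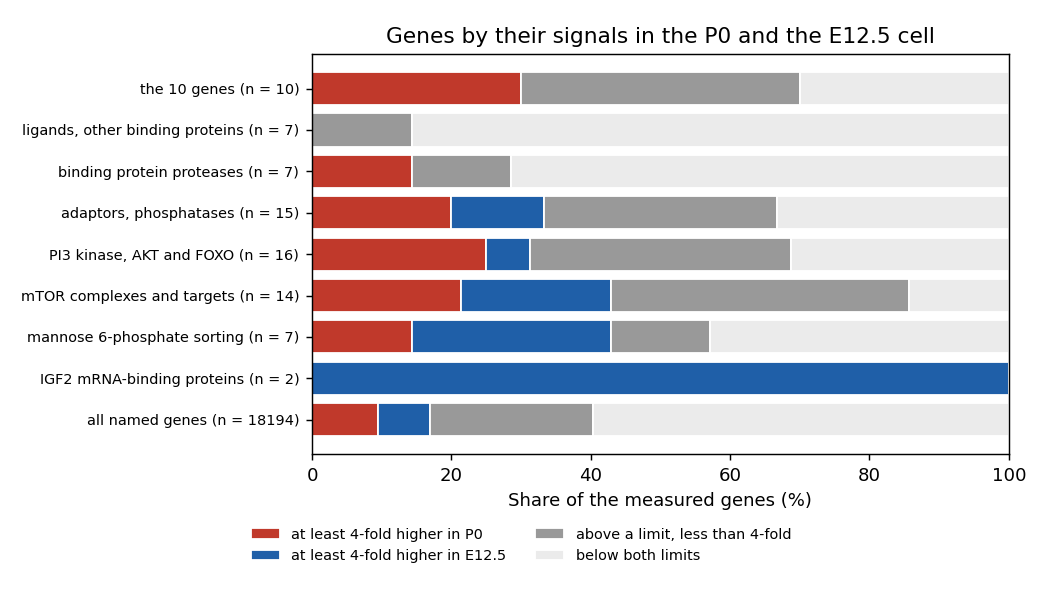
Share of the measured genes, in percent, that were at least 4-fold higher in P0 (red), at least 4-fold higher in E12.5 (blue), above a limit in at least 1 cell with less than a 4-fold difference (dark grey), or below both limits (light grey). The 10 genes stand at the top with 3 higher in P0 and 0 higher in E12.5, and all 18194 named genes at the bottom with 9.46% and 7.44%.

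Of 15 adaptor and phosphatase genes at the receptors, 7 were above background in P0 and 8 in E12.5, with 3 called higher in P0 and 2 in E12.5. Over all named genes, 28.5% and 30.8% were above background, and 9.46% and 7.44% were called, in the same order. The P0 calls were Sh2b1 (5.31-fold, 1880 in P0 and 354 in E12.5), whose adaptor protein binds the insulin receptor, the RAS exchange factor gene Sos2 (at least 4.56-fold, 1081 and 14.8) and the adaptor gene Shc1 (at least 4.33-fold, 1026 and 4.24). The E12.5 calls were Irs4 and Socs3, a feedback inhibitor of cytokine and insulin signalling, at least 4.70-fold, with 69.3 in P0 and 1596 in E12.5. The Socs3 call was lost without designs that match several transcripts, at a log2 ratio of -0.24, and with averaged probe sets, at -1.40. Grb10, an imprinted gene whose adaptor protein dampens insulin and IGF1 receptor signalling, was bright in both cells, with 10686 in P0 and 20975 in E12.5, a difference under 4-fold. Ptpn11, the SHP2 phosphatase gene, had 4436 in P0 and 3417 in E12.5, and the docking protein gene Gab1 had 1015 and 2074. Grb2, the adaptor gene that links receptors to RAS, gave conflicting readings: 530 in P0 and 1877 in E12.5 by the probe set that represents it, and 7181 and 3.26 by another.

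Of 16 PI3 kinase, AKT and FOXO genes, 9 were above background in P0 and 6 in E12.5, and 4 were called higher in P0 and 1 in E12.5. Beside these stand 28.5% and 30.8% of all named genes above background, and 9.46% and 7.44% called. Gsk3b, a kinase gene whose product AKT inhibits, was at least 26.0-fold higher in P0 (6170 in P0 and 7.62 in E12.5), although its second probe set read 58.5 in P0 and 437 in E12.5. Foxo3, a transcription factor gene whose product AKT keeps out of the nucleus, was at least 22.7-fold higher in P0 by 1 probe set (5369 and 30.2) and past 4-fold by a second (3958 and 10.0). Pdpk1, the gene of the kinase that activates AKT, was at least 12.8-fold higher in P0 (3028 and 71.6), with a second probe set in the other order (3.24 and 491). The PI3 kinase regulatory subunit genes went in opposite directions: Pik3r1 was at least 4.59-fold higher in P0 (1086 and 111), and Pik3r3 was 5.96-fold higher in E12.5 (1155 in P0 and 6883 in E12.5). Akt1, with 1907 in P0 and 7265 in E12.5, Phlpp1, with 2081 and 719, and Inppl1, with 2087 and 2761, were detected in both cells and differed by less than 4-fold. Of the 5 calls, Gsk3b, Pdpk1 and Pik3r1 were lost with averaged probe sets, at log2 ratios of 1.07, 1.57 and 0.94.

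Of 14 genes of the mTOR complexes and their targets, 6 were above background in P0 and 10 in E12.5, with 3 called in each direction. The shares of all named genes were 28.5% and 30.8% above background, with 9.46% called higher in P0 and 7.44% in E12.5. Tsc1 and Tsc2, whose products together inhibit mTOR complex 1, were 5.31-fold and at least 4.02-fold higher in P0, with 1359 and 953 in P0, and 256 and 17.7 in E12.5. The ribosomal protein gene Rps6, whose product is phosphorylated downstream of mTOR, was at least 8.67-fold higher in P0 (2054 and 187). The kinase gene Mtor itself was at least 11.9-fold higher in E12.5, with 169 in P0 and 4053 in E12.5, as were Eif4ebp1, a translational repressor gene that mTOR controls (at least 12-fold, 161 and 4055), and Akt1s1, an mTOR complex 1 inhibitor gene (at least 9.82-fold, 36.1 and 3333). Further probe sets of Eif4ebp1 (76.0 and 5674) and Akt1s1 (10.7 and 2650) were also past 4-fold, while another of Akt1s1 (62.8 and 681) and a second of Mtor (188 and 446) were above background in E12.5 and short of it. Rheb (3358 and 1162), Rptor (801 and 1053) and Mapkap1 (507 and 736) were detected in both cells. Averaging over probe sets ended the calls of Mtor (log2 ratio -1.15), Tsc1 (1.15) and Rps6 (1.82).

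Of 7 genes of mannose 6-phosphate sorting, the lysosomal function of Igf2r, 3 were above background in each cell. Among all named genes, 28.5% were in P0 and 30.8% in E12.5. Gnptg, a subunit gene of the enzyme that makes the tag, was at least 8.70-fold higher in P0 (2060 in P0 and 14.6 in E12.5). Gga3, an adaptor gene for cargo leaving the Golgi, was at least 8.34-fold higher in E12.5 (329 and 2831), the P0 signal lying just under its limit. The smaller receptor gene M6pr was 4.54-fold higher in E12.5 by 1 probe set (629 and 2852) and at least 18.3-fold higher in P0 by another (4343 and 10.9), so the readings do not settle a direction. Gga2 was detected in both, with 4293 in P0 and 7470 in E12.5.

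Of the 3 genes of IGF2 mRNA-binding proteins, which bind IGF2 and other transcripts and are known from fetal tissue, 2 had a probe set of their own, and both were detected in E12.5 only. Igf2bp1 was at least 16.6-fold higher in E12.5, with 71.0 in P0 and 5634 in E12.5, and Igf2bp3 at least 8.2-fold, with 73.6 in P0 and 2781 in E12.5. A further Igf2bp1 probe set (9.33 in P0 and 3984 in E12.5) was past 4-fold, and another (119 and 546) was not. Of the 5 Igf2bp3 probe sets above background in E12.5, 4 were past 4-fold, with P0 signals between 6.08 and 73.6 and E12.5 signals between 2066 and 7806. The call of Igf2bp1 was lost with averaged probe sets, at a log2 ratio of -1.94. By the probe sets that represent them, these genes and the 3 receptor genes lay on opposite sides of the comparison, while Igf2 itself was bright in both cells. Another Igf1r probe set was called higher in E12.5, and averaging over probe sets ended all 3 receptor calls.

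The labelled cell type was read from markers. Of 20 ciliary margin genes, 8 were above background in P0 and 9 in E12.5, with 6 in both. Over all named genes the shares were 28.5%, 30.8% and 18.9%. Zic1 (9865 in P0 and 19476 in E12.5), Zic2 (2787 and 4640), Rdh10 (2831 and 1688) and Ccnd2 (13623 and 14149) were in both cells at levels that differed by less than 4-fold. Sox9 (9110 and 48.1) and Bmp7 (1905 and 116) were past 4-fold on the P0 side. Wfdc1 (414 and 10696), Cdon (1193 and 12766), Mecom (8.63 and 5708), Gja1 (50.9 and 2520) and Otx1 (48.8 and 1573) were past it on the E12.5 side. Msx1, Bmp4, Mitf and Wnt2b, which also mark this region, were below background in both. Some markers of other cells were also detected. Of 10 mesenchymal genes, Pdgfra (3088 in P0 and 63.0 in E12.5) and Col1a2 (2653 and 6.0) were above background in P0 and 0 in E12.5. That share in P0 is below the 28.5% of all named genes. The summed signal of the list was 6210 in P0 and 659 in E12.5. The defining genes Col1a1 (11.5 and 51.1), Twist1 (106 and 111) and Pdgfrb (38.5 and 44.6) were below background in both cells. Of 11 vascular genes, Rgs5 (833 in P0 and 47.9 in E12.5) was the only one detected, with summed signals of 1654 and 520. The pigment cell genes Trpm1 and Rab38, of 10 measured, and the ganglion cell gene Gap43, of 9, were detected in E12.5 and not in P0. These shares in E12.5 are below the 30.8% of all named genes. All other genes of the 2 lists were below background in both cells. Among them were Tyr (11.9 in P0 and 64.7 in E12.5), Dct (3.24 and 121), Isl1 (83.8 and 15.6) and Pou4f1 (7.91 and 106). Of 6 photoreceptor genes, 0 were detected in either cell. None of 11 microglial genes was detected, with summed signals of 535 in P0 and 480 in E12.5. The part of these markers in the receptor and binding protein readings was not tested.

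The ratios of the 7 detected genes were followed through 9 other ways of scoring, drawn setting by setting. Igf1r, Igf2r and Insr stayed above 4-fold with quantile normalization and with a pseudocount. They also did so when the 95th percentile or the bacterial controls set the limit, with no limit, and without designs that match several transcripts. The latter settings could not end these calls. They only lower or remove the limits, or leave the probe sets that represent these genes in place. Under the spike-in scaling Igf2r lost its call, at a log2 ratio of 1.67. Averaging over probe sets ended all 3 calls, and keeping 32 casein kinase probe sets among the background genes, which raised the limits to 4551 in P0 and 3075 in E12.5, did so too.

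**Figure D4:**
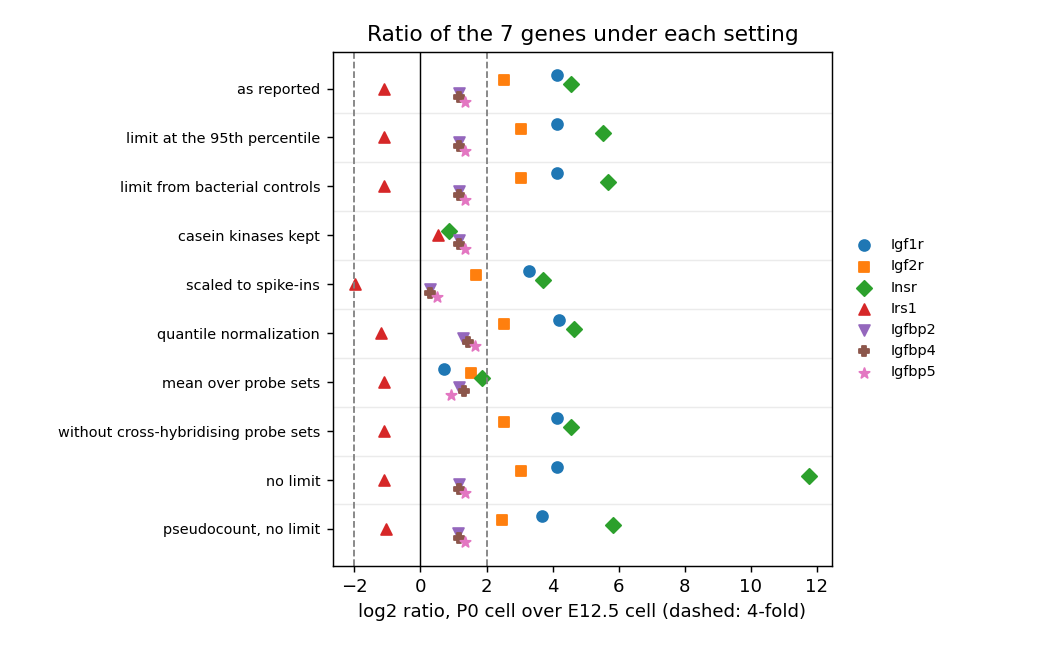
Log2 ratio of P0 over E12.5 for the 7 genes above background in at least 1 cell, under the scoring as reported and 9 alternatives, with dashed lines at 4-fold. A missing point means that the gene was below both limits, or had no probe set left, under that setting. The setting drawn as "without cross-hybridising probe sets" leaves out all designs that match several transcripts. Igf1r stands at 4.14 as reported and at 0.73 with probe sets averaged, and Irs1 below 0 under all settings shown except that with casein kinases kept (0.52).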

How the data were processed

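Gene expression was measured in 2 single cells, 1 per age. The authors deposited 1 linear signal intensity per probe set and cell, computed with MAS5 per the submitters' processing notes; the sources used here state neither version nor settings. The values show scaling of each array on its own, with a mean of 500.0 in both after leaving out 2% at each end. There are no reads, so depth does not apply, and no detection calls were used. Per the labels' protocols, cDNA was primed at the poly(A) tail, which favours 3′ ends.

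Of 45101 probe sets, 34958 carried 1 symbol in the platform annotation; 932 with several symbols and 9211 without an entry were left out. The symbols of 34754 were updated by gene identifier from RefSeq (GRCm38.p6). No build is named for the signals, so coordinates are given for promoters only. The background limit was the 99th percentile of 203 probe sets, leaving out casein kinases. Ratios were taken after raising each signal to its limit. Named genes were the 10 genes with every probe set, pathway genes past 4-fold or above the limit in both cells, and marker genes above a limit; a few others are named where a list needs them. The genes, lists, motifs and rules were chosen with earlier results of these data known, and support nothing by their choice. The alternatives were other limits, scalings, a pseudocount of 100, no limit, averaged probe sets and leaving out designs that match several transcripts. Scoring was tested on simulated data without dropout or conflicting probe sets, with changes planted only in genes far above the limit. That test checks the scoring rule and does not measure the error in these cells. Python 3.11.15, numpy 2.4.6 and pandas 2.3.3 were used.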

Additional observations from a re-analysis of the deposited data

How the results depend on the processing

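No paired analysis was possible because each age is 1 cell, and for the same reason no cell could be left out. Genes of the 10 above background numbered 7 in P0 and 5 in E12.5. They numbered 4 in P0 with casein kinases kept among the background genes. Without designs that match several transcripts they numbered 4 in P0 and 2 in E12.5. Leaving out those designs, whose names end in _a_at, _s_at or _x_at, leaves Igfbp2, Igfbp4 and Igfbp5 with no probe set. Genes at least 4-fold higher in P0 numbered 3, but 0 with casein kinases kept and 0 with probe sets averaged. With no limit, 2 genes, Irs2 and Igfbp3, passed 4-fold on the E12.5 side from signals below background. The share of all named genes called higher was 9.46% in P0 and 7.44% in E12.5; it was 0.143% and 0.0385% with casein kinases kept, 6.08% and 11.8% with spike-in scaling, 21.6% and 22.6% with no limit, and 5.6% and 3.72% with probe sets averaged. Of the pathway genes called at 4-fold, the only pathway genes followed singly, 4 changed sign. Mtor (0.17), Akt1s1 (0.45) and Eif4ebp1 (0.17) did so with casein kinases kept. This setting places both signals near or under raised limits that differ between arrays. M6pr (1.008), whose probe sets disagree, did so with probe sets averaged. With the other probe set of conflicting genes, a choice made after seeing the data, the list medians of the PI3 kinase genes (-0.40) and of the sorting genes (1.16) changed sign. Of 58 recomputed log2 ratios of the detected genes, 42 moved by less than the SD between probe sets, 16 by more, and 0 of the called ones changed sign. This tally does not measure robustness, since several settings fix the outcome. Lower limits, or none, cannot move a gene above both limits, and averaging cannot move a gene with 1 probe set. The spike-in scaling shifts every ratio by -0.87, which is larger in size than that SD of 0.84. Detection is limited by the signal over background of a single amplified cDNA.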
